A study of Mus musculus with 4 samples.

Results

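Alveolar type 1 (AT1) cells are the thin, flat cells that cover most of the gas-exchange surface of the lung, and the genes described here are a set of their markers. The set was given by name and holds 10 rows of the gene count table, for Hopx, Aqp5, Pdpn, a second copy of Pdpn called Pdpn_1, Ager, Cav1, Clic5, Rtkn2, Spock2 and Emp2, out of 40092 rows in all. They were read in RNA-seq of alveolar type 2 (AT2) cells, which make surfactant and serve as the stem cells of the alveolus, sorted as GFP+ cells from mouse lungs on day 14 after bleomycin, a drug that injures the lung epithelium. The 2 Ctrl libraries came from mice with the genotype Alkbh5 flox/+; Sftpc-CreERT2; Rosa26-mTmG and the 2 A5-CKO libraries from mice with Alkbh5 flox/flox and the same driver and reporter. All mice received tamoxifen and bleomycin, and the controls were littermates. Alkbh5 encodes an RNA demethylase that removes the m6A mark. Ctrl mice thus also carried 1 floxed allele and the active Cre, so the comparison is of homozygous with heterozygous deletion. Sftpc-CreERT2 acts in cells that use the surfactant protein C promoter, and mTmG turns a cell and its descendants green after recombination, so the sort takes AT2 cells together with any AT1 cells that arose from them. The labels give no age, and nothing beyond separate sample entries says how the 2 libraries of a genotype were obtained, so that p-values measure the spread between these samples.

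When the alveolus is injured, AT2 cells divide, and some pass through a transitional state and flatten into AT1 cells. In doing so they lose surfactant genes and gain genes for membrane channels, caveolae, basement membrane and the cytoskeleton of a thin cell. Few AT1 markers are exclusive to AT1 cells. Aqp5, Emp2 and Hopx can also be read in AT2 or airway cells, Cav1 in endothelial and mesenchymal cells, and Pdpn in lymphatic endothelium, mesothelium and fibroblasts. The question addressed by the comparison was whether AT2 cells without Alkbh5 carried more or less of the AT1 program during repair.

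The markers did not move as 1 block. Hopx, Cav1, Clic5 and Spock2 had higher normalized counts in both A5-CKO libraries than in either Ctrl library, by 1.49- to 2.47-fold. Aqp5 went the other way and was lower in both A5-CKO libraries, at 0.577 of the Ctrl level. Rtkn2, Emp2 and Pdpn_1 overlapped between genotypes. Pdpn on its main copy and Ager had too few counts to be tested. No marker passed the test, since edgeR's quasi-likelihood test (Benjamini-Hochberg adjustment over 16661 genes) called 0 of 8 at an adjusted p under 0.05, where 0.0% of all genes passed. At an unadjusted p under 0.05, edgeR gave 1 of the 8, Spock2, which was higher in A5-CKO, where 4.48% of all genes were higher at that threshold and 9.18% differed in either direction. DESeq2 on the same genes also called 0 of the 8, where it called 0.384% of all genes, and had 3 of them, Aqp5, Rtkn2 and Spock2, at an unadjusted p under 0.05, where 10.7% of all genes were. With 2 libraries against 2, the smallest two-sided p that permuting the labels allows is 0.333.

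The 4 libraries held from 18144865 to 20811757 counts. Normalized counts (CPM) are counts brought to a common library size with edgeR's TMM factors, which were 0.860 to 0.933 in Ctrl and 1.11 to 1.13 in A5-CKO, and a count of 3, taken as the floor of detection, was 0.128 to 0.177 CPM. The floor and the Poisson interval given for Ager cover counting error only. The limma voom interval given for Emp2 also takes in the spread between libraries. Alkbh5 had 81.7 and 152 CPM in Ctrl and 19.3 and 36.6 CPM in A5-CKO, which gave a log2 fold change of -2.06 (standard error, SE, 0.46, edgeR adjusted p = 0.528, adjusted p = 0.0214 in DESeq2 on the same genes). As for the sort, Sftpc had 7856 to 16371 CPM, and per kilobase of exon its mean of 12082 CPM stood far above that of every AT1 marker. The spread between libraries was wide, with a biological coefficient of variation of 41.6%. Fewer cells of a type and less RNA of a gene per cell cannot be told apart in such bulk libraries.

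**Figure D1:**
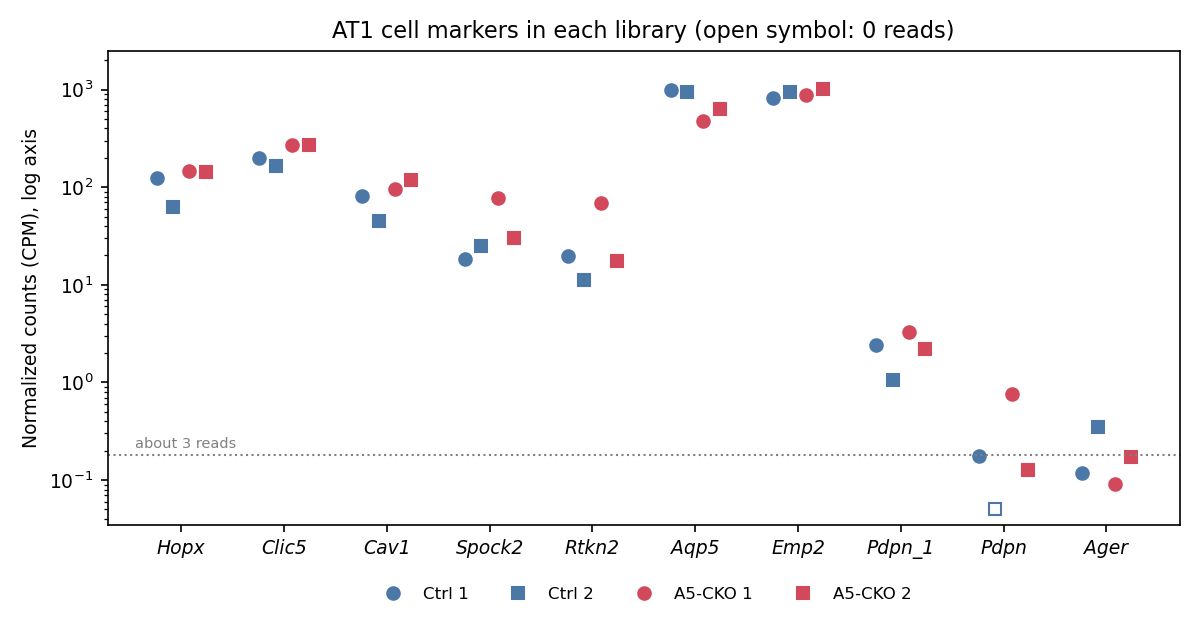
Normalized counts (CPM, log axis) of the 10 AT1 marker rows in each library, Ctrl in blue and A5-CKO in red, replicate 1 as circles and replicate 2 as squares, with a dotted line near the CPM of 3 counts and an open symbol for 0 counts. Aqp5 and Emp2 lie highest, Pdpn and Ager lie near the floor, and A5-CKO 1 stands above the other libraries in Rtkn2 and Spock2.

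Levels between genes were compared per kilobase of exon, as the mean CPM per kilobase over the 4 libraries. Aqp5, the water channel of the alveolar surface, was highest at 293 CPM per kilobase (from 184 to 378 in single libraries). Emp2, a membrane protein with 4 spans of the PMP22 family, followed at 106 (from 95.9 to 118). Hopx, a homeodomain protein that does not bind DNA itself, had 78.7 (from 41.8 to 96.5), so that its highest library reached the lowest of Emp2. Clic5 and Cav1 came next at 25.6 and 24.6 CPM per kilobase and the range of Clic5 lay within that of Cav1. Spock2 with 6.83 and Rtkn2 with 5.32 overlapped each other, and the highest library of Spock2 was above the lowest of Cav1 (13.1 CPM per kilobase). The levels thus fell into Aqp5, then Emp2 with Hopx, then Clic5 with Cav1, then Spock2 with Rtkn2, with Aqp5 apart from Emp2 and Hopx apart from Clic5 in every library.

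Hopx (chr5, 77086986 to 77115123, GRCm38.p6), which marks AT1 cells and their precursors, had 124 and 63.3 CPM in Ctrl 1 and Ctrl 2 and 146 and 143 CPM in A5-CKO 1 and A5-CKO 2. The Ctrl mean was 93.8 ± 43.1 and the A5-CKO mean 145 ± 2.03 (SD, n = 2 each). Its A5-CKO libraries were close to each other and above both Ctrl libraries, of which Ctrl 2 was low. This gave a log2 fold change of 0.63 (SE 0.38, edgeR adjusted p = 0.581). It was 0.18 without Ctrl 2 and 1.25 without Ctrl 1. An antisense-named gene within Hopx, Hopxos, had 4, 0, 8 and 9 counts, so at most a few reads lay there.

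Clic5 (chr17, 44134762 to 44280169), a member of the chloride intracellular channel family tied to ezrin and the actin cortex, had 198 and 163 CPM in Ctrl and 271 and 268 CPM in A5-CKO. The means were 181 ± 24.5 and 269 ± 2.30 (SD, n = 2 each), and both A5-CKO libraries exceeded both Ctrl libraries. The log2 fold change was 0.58 (SE 0.30, edgeR adjusted p = 0.553). Leaving out 1 library at a time moved it from 0.40 to 0.78, the narrowest range of the 4 markers that were higher in both A5-CKO libraries, and was 0.25 after a correction for GC content and transcript length. With TMM scaling its paralog Clic3 had the opposite order, with 273 and 163 CPM in Ctrl and 138 and 129 CPM in A5-CKO (log2 fold change -0.71, or -0.41 with total counts only). The paralogs Clic4 and Clic6 had log2 fold changes of -0.67 and 0.17, both with overlapping libraries. Ezr, the ezrin gene, had a log2 fold change of -0.24. Clic5, these paralogs and Ezr therefore did not share a direction.

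Cav1 (chr6, 17306335 to 17341328) encodes caveolin 1, which coats the caveolae abundant in AT1 and endothelial cells. It had 81.0 and 45.03 CPM in Ctrl and 95.8 and 118 CPM in A5-CKO, with means of 63.0 ± 25.4 and 107 ± 15.6 (SD, n = 2 each). As with Hopx, Ctrl 2 was the low library and both A5-CKO values lay above both Ctrl values. The log2 fold change was 0.76 (SE 0.36, edgeR adjusted p = 0.534), and was 0.36 without Ctrl 2 and 1.31 without Ctrl 1. Cav2, the partner that forms oligomers with caveolin 1 and lies next to it on chr6, had 81.3 and 50.6 CPM in Ctrl and 104 and 127 CPM in A5-CKO (log2 fold change 0.81, unadjusted p = 0.0490 and adjusted p = 0.528 in the edgeR model). Cavin2, a coat protein of caveolae, had 23.0, 16.8, 62.8 and 32.1 CPM, listed as Ctrl 1, Ctrl 2, then A5-CKO 1, A5-CKO 2 (log2 fold change 1.25, unadjusted p = 0.0218 and adjusted p = 0.528 in the edgeR model). Of the other caveolar genes, Cavin1 and Ehd2 had log2 fold changes of -0.19 and -0.18 and Cavin3, with 20.9, 6.52, 12.5 and 26.6 CPM, of 0.51, and all 3 overlapped between genotypes.

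Spock2 (chr10, 60106257 to 60135198), which encodes the matrix proteoglycan testican 2, had 18.3 and 25.2 CPM in Ctrl and 77.5 and 30.1 CPM in A5-CKO. The means were 21.8 ± 4.85 and 53.8 ± 33.5 (SD, n = 2 each). Both A5-CKO libraries exceeded both Ctrl libraries, but A5-CKO 2 only by a few CPM. The log2 fold change of 1.30 (SE 0.49) had an edgeR unadjusted p of 0.0333 and an edgeR adjusted p of 0.528. Without A5-CKO 1 it was 0.46. Gm51801, which overlaps Spock2, had 8, 10, 46 and 6 counts.

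Rtkn2 (chr10, 67979566 to 68058429), a marker with a restricted pattern in the lung epithelium, also had its highest value in A5-CKO 1. It had 19.9 and 11.1 CPM in Ctrl and 69.4 and 17.6 CPM in A5-CKO, so that A5-CKO 2 lay below Ctrl 1 and the genotypes overlapped. The log2 fold change was 1.49 (SE 0.66, edgeR adjusted p = 0.528), the highest of the 8 markers tested, and it was 0.17 without A5-CKO 1. Rtkn, the paralog, had 193 and 294 CPM in Ctrl and 186 and 85.2 CPM in A5-CKO (log2 fold change -0.85). Of these 2 paralogs, Rtkn2 thus had its higher mean in A5-CKO and Rtkn in Ctrl.

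Aqp5 (chr15, 99591028 to 99594829), the most abundant of the markers, had 981 and 951 CPM in Ctrl and 479 and 636 CPM in A5-CKO. The means were 966 ± 21.3 and 557 ± 111 (SD, n = 2 each), and both A5-CKO libraries were below both Ctrl libraries. The log2 fold change was -0.79 (SE 0.35, edgeR adjusted p = 0.528), and leaving out 1 library at a time kept it from -1.05 to -0.62. With the correction for GC content and transcript length it was -0.33. The non-coding gene Gm34765 spans Aqp5 and had a log2 fold change of -0.62, with 78.1, 63.1, 47.4 and 44.5 CPM in the order of libraries above. Reads of the overlap cannot be assigned to either gene with certainty, because the counting's strand setting is not given in the sources used here. Among other water channels, Aqp1, which endothelial cells use, had a log2 fold change of -0.49 with overlapping libraries, Aqp3 had 2.91 to 5.14 CPM and Aqp4 had 0.756 to 1.86 CPM.

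Emp2 (chr16, 10281749 to 10313968) was nearly level, with 829 and 951 CPM in Ctrl and 872 and 1022 CPM in A5-CKO. Its log2 fold change was 0.09 (SE 0.35, edgeR adjusted p = 0.936). The 95% interval from limma voom ran from -0.66 to 0.84 on the log2 scale, so a difference of the size seen for Hopx or Cav1 lies within it. The value was -0.041 with the correction for GC content and transcript length and -0.061 without A5-CKO 2. Emp1, a paralog, varied far more, with 107.6, 29.8, 47.8 and 294 CPM in the same order of libraries, and its genotypes overlapped. Pmp22 had 56.4 and 46.4 CPM in Ctrl and 68.4 and 87.3 CPM in A5-CKO (log2 fold change 0.60).

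**Figure D2:**
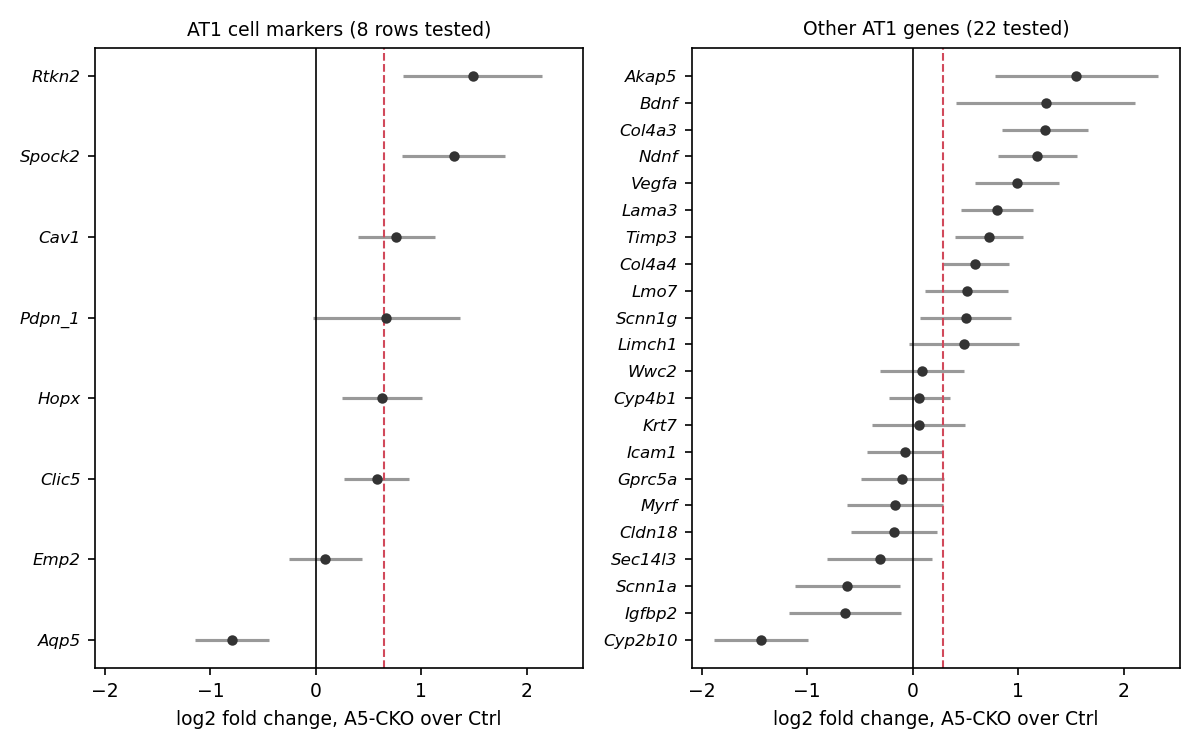
Log2 fold changes of A5-CKO over Ctrl from edgeR for the 8 AT1 marker rows tested (left) and for 22 other genes known in AT1 cells (right), with points for the estimate, bars for 1 standard error and a dashed line at each list's median, 0.65 and 0.29. Of the markers, 7 lie right of 0 and Aqp5 lies left of it.

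Podoplanin and the receptor RAGE, encoded by Pdpn and Ager, are the surface proteins by which AT1 cells are most often stained, and both were close to the floor of this table. Pdpn (chr4, 143267409 to 143299564) had 3 and 0 counts in Ctrl and 17 and 3 counts in A5-CKO. Its copy on a fix patch of the genome, Pdpn_1, had 41 and 18 counts in Ctrl and 73 and 52 in A5-CKO, more than the main copy in every library. Pdpn_1 was tested and gave a log2 fold change of 0.67 (SE 0.69, edgeR adjusted p = 0.738). Both copies added together gave 44, 18, 90 and 55 counts and a log2 fold change of 0.81 (SE 0.71, edgeR adjusted p = 0.696). A5-CKO 1 was the highest and Ctrl 2 the lowest, and Ctrl 1 and A5-CKO 2 did not separate by genotype once scaled, at 2.60 and 2.35 CPM. Of the 9 markers, 1 has such a patch row. How many reads were lost because they matched both copies was not tested, so these counts are no measure of the level of Pdpn against other genes. The protein-coding genes within 500 kb of the start of the main copy were also low, with 11 of 13 listed at 0 (84.6%), 1 tested and a median total of 0 counts, and whether they are active in these cells was not tested.

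Ager (chr17, 34597460 to 34600937) had 2 and 6 counts in Ctrl and 2 and 4 counts in A5-CKO. The sum of 14 counts has an exact Poisson 95% interval of 7.65 to 23.5, and no fold change is given. The low count was shared by many of the genes around it. Of the 58 protein-coding genes whose start lies within 500 kb of that of Ager, 23 were listed at 0 in all libraries (39.7%, against 18.003% of all protein-coding genes), 11 had enough counts to be tested (19.0%, against 64.3%), and the median total over the 4 libraries was 4 counts (against 409). Genes used by nearly every cell also had few counts or none in this window and just outside it. Brd2, Bag6, Daxx, Csnk2b and Ndufa7 were listed at 0, and Rps28, a protein of the small ribosomal subunit, had 11 counts in all. Farther out, counts returned, with 5467 for Rab11b at -855.0 kb and 5228 for Ddr1 at 1084 kb from the start of Ager. The genes named here were chosen after their values were seen. The Ager row can therefore not be read as a level of Ager RNA, and the cause of the low stretch was not tested. Clic1, which lies 453 kb from Ager, had 68 counts in all and shares this limit. Around the markers other than Ager and Pdpn, 0 neighbours within 500 kb were listed at 0 and 60.0% to 100% were tested.

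**Figure D3:**
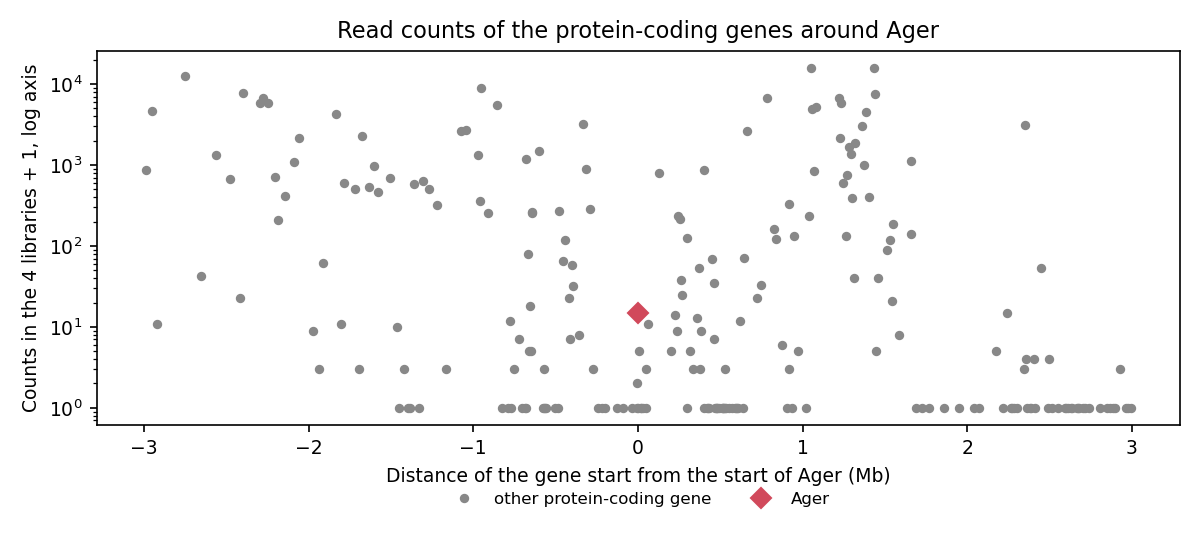
Counts summed over the 4 libraries, plus 1, on a log axis, for protein-coding genes by the distance of their start from that of Ager in megabases. Genes with 0 counts line the bottom close to Ager, which itself has 14 counts, while many genes farther out hold far more, and another run of genes at 0 lies at the right end.

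Of the 8 markers tested, 4 were higher in both A5-CKO libraries, where 20.3% of all genes were higher in this way, and 1 was lower, where 23.5% of all genes were lower. The median log2 fold change of the 8 was 0.65, and that of all genes tested was -0.02. Scaling bears on these counts, because the TMM factors differed between genotypes. With total counts only, the median of all genes moved to 0.30 and that of the markers to 0.94, and 7 of the 8 were higher and 1 lower in both A5-CKO libraries, where 34.8% of all genes were higher and 10.1% lower. Aqp5 was the lower one under both scalings. The filter on low counts left out Pdpn and Ager, so these are counts over the 8 rows that passed.

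The libraries of a genotype were not alike in the markers. Ctrl 2 was the lowest library in 5 of the 8 (25.9% of all genes) and A5-CKO 1 the highest in 5 of the 8 (27.8% of all genes). The median log2 deviation of the 8 from their own means was -0.06 and -0.59 in the Ctrl libraries and 0.33 and 0.11 in the A5-CKO libraries, in replicate order. Ctrl 1 thus lay nearer to A5-CKO 2 than to Ctrl 2. Left out in turn, the Ctrl libraries moved the median log2 fold change of the markers most, to 0.27 without Ctrl 2 and 1.20 without Ctrl 1.

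**Figure D4:**
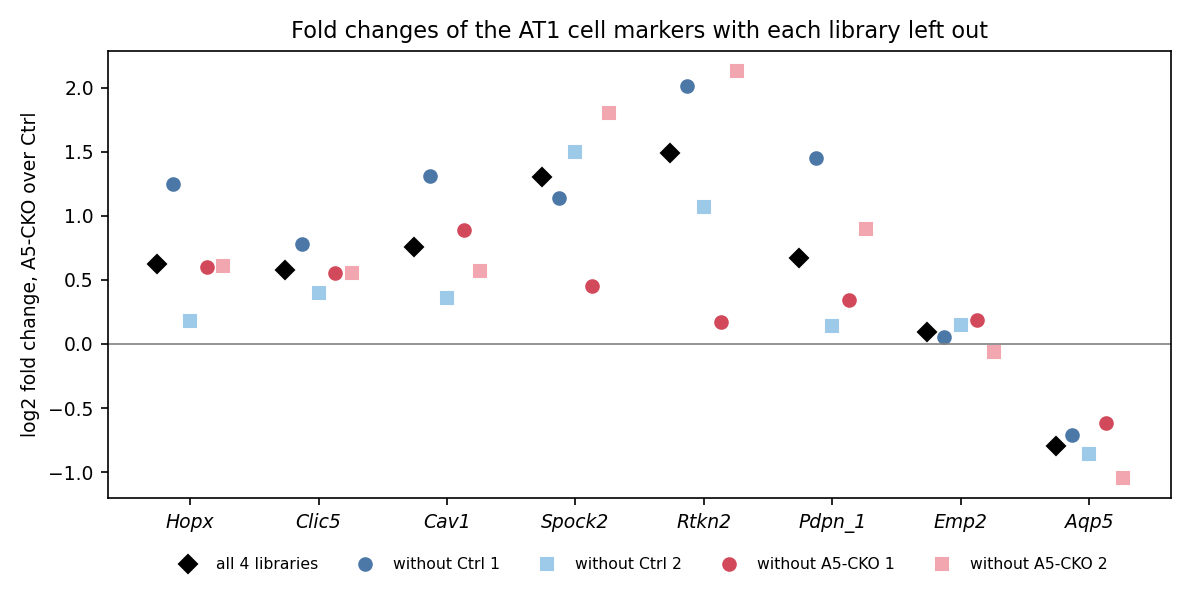
Log2 fold changes of A5-CKO over Ctrl for the 8 AT1 marker rows tested, from edgeR with all 4 libraries (black) and after dropping 1 library at a time (colours). Rtkn2 and Spock2 drop to 0.17 and 0.46 without A5-CKO 1, Hopx, Cav1 and Pdpn_1 spread with the Ctrl libraries, and Aqp5 stays below 0 throughout.

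Among 22 other genes known in AT1 cells, all tested, 14 had positive and 8 negative log2 fold changes, with a median of 0.29. edgeR's test called 0 of them at an adjusted p under 0.05, and 4 had an unadjusted p under 0.05 (9.18% of all genes did). Both A5-CKO libraries were higher in 8 of the 22 (20.3% of all genes) and lower in 2 (23.5% of all genes). With total counts only, they were higher in 10 (34.8% of all genes) and lower in 1 (10.1% of all genes). The basement membrane collagen gene Col4a3 had 73.5 and 35.1 CPM in Ctrl and 146 and 113 CPM in A5-CKO (log2 fold change 1.25, SE 0.41). Ndnf, a secreted glycoprotein gene, had 183, 108.2, 298 and 361 CPM in the order of libraries above (log2 fold change 1.18, SE 0.37). Vegfa, the endothelial growth factor that AT1 cells supply to capillaries, had 173 and 208 CPM in Ctrl and 492 and 261 CPM in A5-CKO (log2 fold change 0.98), and was named here after its values were seen. In the other direction, the cytochrome P450 gene Cyp2b10 had 611 and 421 CPM in Ctrl and 126 and 256 CPM in A5-CKO (log2 fold change -1.43, SE 0.44). The 3 most abundant genes of the list, Icam1, Cldn18 and Gprc5a, which encode an adhesion molecule, a tight junction protein and a G protein-coupled receptor, had log2 fold changes of -0.07, -0.18 and -0.10 with overlapping libraries. These 3 genes and Emp2 thus stood near 0, while Aqp5, of like abundance, was lower in A5-CKO. Scnn1a, the next most abundant gene of the list, was also lower in both A5-CKO libraries. It had 876 and 892 CPM in Ctrl and 316 and 833 CPM in A5-CKO (log2 fold change -0.62).

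Genes of the marker partners and paralogs, 23 in all, had no common direction, with 10 positive and 11 negative log2 fold changes among the 21 tested and a median of -0.02. Both A5-CKO libraries were higher in 4 and lower in 4 of these, near the shares of 20.3% and 23.5% for all genes. With total counts only they were higher in 5 and lower in 1, where 34.8% and 10.1% of all genes were. edgeR's test called 0 of the 21 at an adjusted p under 0.05 (0.0% of all genes). At an unadjusted p under 0.05 it gave 2, Cav2 and Cavin2, both higher in A5-CKO. At that threshold 4.48% of all genes were higher and 9.18% differed in either direction. The abundant members Ezr, Msn and Cd44, which link the membrane to actin or bind matrix, had log2 fold changes of -0.24, 0.44 and 0.05.

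Marker lists of the other cell types in the sort were read beside the AT1 markers, and their part in the result was not tested. All 14 AT2 genes had negative log2 fold changes, with a median of -0.85, and 10 were lower in both A5-CKO libraries (23.5% of all genes were), or 7 with total counts only (10.1% of all genes). Their summed level was 82150 and 112020 CPM in Ctrl and 60565 and 48260 CPM in A5-CKO. Sftpc had 15477 and 16371 CPM in Ctrl and 10268 and 7856 CPM in A5-CKO, Sftpa1 had a log2 fold change of -0.83 and Lyz2 of -0.73. Fabp5, a fatty acid carrier, had a log2 fold change of -1.85, Napsa, the protease that processes surfactant protein B, of -1.13, and Chil1 of -0.996. edgeR's test called 0 of the 14 at an adjusted p under 0.05, where 0.0% of all genes passed. At an unadjusted p under 0.05 it gave 2 of the 14, where 9.18% of all genes differed in either direction. Aqp5, alone among the 8 AT1 markers tested, shared the direction of the AT2 genes.

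Markers of the transitional cells that lie between AT2 and AT1 followed single libraries. Of 13 genes, 12 had positive log2 fold changes, with a median of 0.28. With TMM scaling only Cdkn1a, a brake of the cell cycle, was higher in both A5-CKO libraries, where 20.3% of all genes were. It had 296 and 139 CPM in Ctrl and 344 and 418 CPM in A5-CKO. With total counts only, 3 of the 13 were higher, where 34.8% of all genes were. The summed level of the 13 was 3711 and 1478 CPM in Ctrl and 2297 and 4007 CPM in A5-CKO. Ctrl 2 was the lowest library in 11 of the 13. Krt8, the keratin that names this state, had 832, 537, 537 and 836 CPM (log2 fold change 0.0045), Krt18 had a log2 fold change of 0.20 and the lectin gene Lgals3 of 0.07. Itgb6, an integrin subunit that activates TGF beta, had 80.5 and 17.8 CPM in Ctrl and 76.7 and 89.0 CPM in A5-CKO, and Plaur, the urokinase receptor gene, had 57.8, 17.98, 29.6 and 100.4 CPM. Ctrl 2 was thus low in transitional genes as well as in Hopx, Cav1 and Rtkn2.

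Endothelial genes are of interest for Cav1. Of 11, 10 were tested, 0 were higher and 3 lower in both A5-CKO libraries (20.3% and 23.5% of all genes), and the median log2 fold change was -0.10. With total counts only, 0 were higher and 0 lower (34.8% and 10.1% of all genes). Their summed level was 368 and 524 CPM in Ctrl and 331 and 370 CPM in A5-CKO. Esam alone held 214 and 305 CPM of these sums in Ctrl and 201 and 167 CPM in A5-CKO, so the sums largely follow this gene. Pecam1 had 31.3 and 48.1 CPM in Ctrl and 29.7 and 50.2 CPM in A5-CKO, Cdh5 had a log2 fold change of -0.08, Esam of -0.50, Car4 of -0.76 and Tie1 of -0.48, and Cldn5 was listed at 0 in every library. Lymphatic and mesothelial genes, of interest for Pdpn, summed to 145 and 70.5 CPM in Ctrl and to 34.0 and 143 CPM in A5-CKO, with 9 of 10 tested and a median log2 fold change of 0.02. A5-CKO 1, the highest library for Pdpn_1, was the lowest in 8 of these 9. Msln had 113, 25.1, 24.3 and 89.2 CPM, Lyve1 and Upk3b had at most 18.6 CPM, Lrrn4 at most 5.34 CPM and Prox1 at most 0.634 CPM.

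Mesenchymal genes, 9 tested of 9, summed to 428 and 160 CPM in Ctrl and to 99.7 and 1106 CPM in A5-CKO. Their median log2 fold change was 0.94. Of the 9, 0 were higher in both A5-CKO libraries (20.3% of all genes) and 1, Tcf21, was lower (23.5% of all genes). A5-CKO 1 was the lowest library in all 9 and A5-CKO 2 the highest in 8. Col1a1 had 147, 32.5, 21.3 and 386 CPM, and Col1a2 and Col3a1 had log2 fold changes of 1.25 and 0.94. Tcf21, of lipofibroblasts, had a log2 fold change of -1.41 and at most 3.72 CPM. Macrophage and leukocyte genes, 10 of 10 tested, summed to 618 and 357 CPM in Ctrl and to 302 and 884 CPM in A5-CKO, with a median log2 fold change of 0.15. Among them Ptprc had 50.9 and 22.5 CPM in Ctrl and 84.3 and 82.8 CPM in A5-CKO, Cd68 had 157, 54.6, 34.1 and 153 CPM, Csf1r and Itgam had log2 fold changes of 0.50 and 0.75, and S100a8 and Cd79a of -0.16 and -0.56. Airway genes, 6 of 6 tested, had a median log2 fold change of -0.55 and sums of 2524 and 2125 CPM in Ctrl and 1718 and 1110 CPM in A5-CKO, led by Scgb1a1 (log2 fold change -0.73), with Scgb3a2 at -0.64, Tppp3 at -0.45 and the ciliated cell factor Foxj1 at -1.51. Rtkn2 and Spock2 were highest in A5-CKO 1, where the mesenchymal and macrophage sums were lowest.

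**Figure D5:**
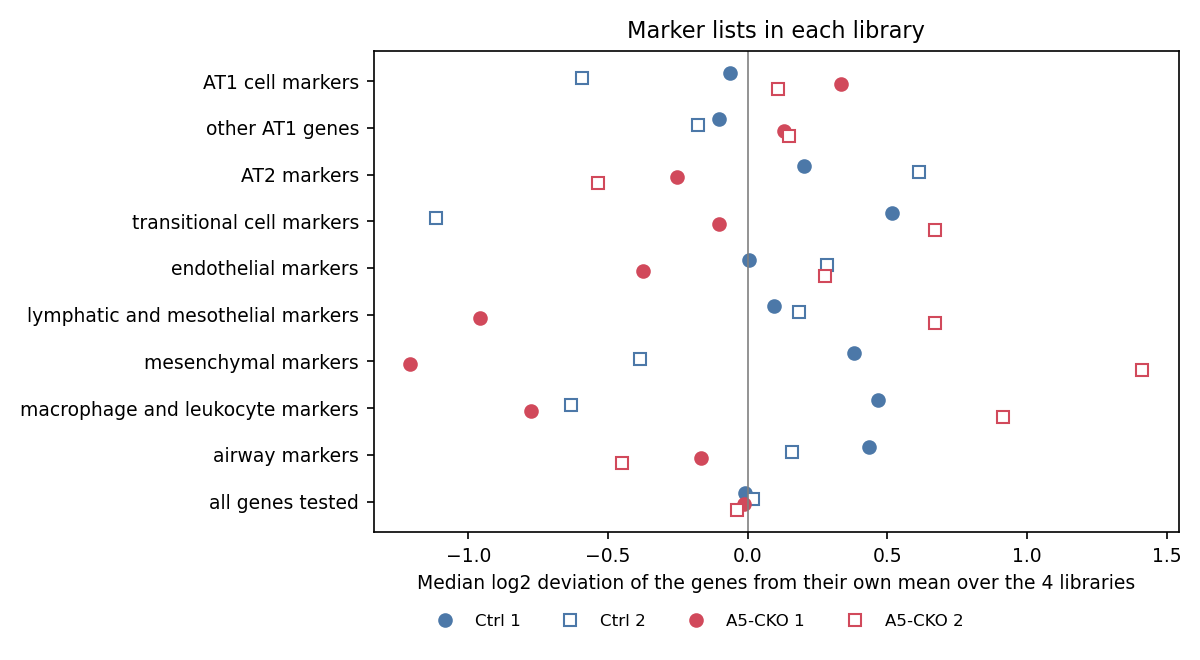
Median log2 deviation of the genes of each marker list from their own mean over the 4 libraries, 1 symbol per library (Ctrl blue, A5-CKO red, filled for replicate 1 and open for replicate 2). The AT1 markers run from -0.59 in Ctrl 2 to 0.33 in A5-CKO 1, the AT2 genes separate the genotypes in the other direction, and the mesenchymal list is lowest in A5-CKO 1 and highest in A5-CKO 2.

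The genes whose pattern over the 4 libraries came closest to the median profile of the 8 markers were sought by the root mean square difference of centred log2 CPM. The 5 nearest genes were Ccdc68 (0.0209), Usp15 (0.0323), Lysmd3 (0.0328), Wdr43 (0.0346) and Cul5 (0.0363). Ccdc68 had 20.2 and 13.3 CPM in Ctrl and 25.6 and 22.7 CPM in A5-CKO. The same distance was 0.123 for Clic5 and 0.171 for Hopx, the closest of the markers themselves, and 0.749 for Aqp5. The 5 genes were the closest of all genes tested and the markers were not picked for likeness, so the distances are a description over 4 points per gene.

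The DNA just before the start of the 4 markers that were higher in both A5-CKO libraries is shown so that their starts can be compared. RefSeq promoter entries on GRCm38.p6 were found for 8 of the 9 markers, 10 entries in all, and Rtkn2 had no entry. Capitals mark matches on either strand to the short motifs searched. For the TEAD factors of the Hippo pathway the letters were GGAATG. The AP-1 letters searched were TGANTCA, bound by Fos and Jun proteins. For the lung epithelial factor NKX2-1, which AT1 and AT2 cells both need, the letters were CTCAAG. The GATA factors were searched as AGATAA in the same windows. For the GC box of many housekeeping promoters the letters were GGGCGG. The TATA box, a core promoter element, was searched as TATAAA in these windows. Each window reads 5′ to 3′ along the gene and ends at its annotated start, except that of Spock2, which ends where a GENCODE exon begins.
Hopx, chr5:77115124-77115373, minus strand: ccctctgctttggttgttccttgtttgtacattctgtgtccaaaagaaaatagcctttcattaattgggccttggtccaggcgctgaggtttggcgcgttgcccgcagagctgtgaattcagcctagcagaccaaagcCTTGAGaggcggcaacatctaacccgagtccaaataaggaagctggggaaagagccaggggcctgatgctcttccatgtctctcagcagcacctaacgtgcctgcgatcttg
Cav1, chr6:17306085-17306334, plus strand: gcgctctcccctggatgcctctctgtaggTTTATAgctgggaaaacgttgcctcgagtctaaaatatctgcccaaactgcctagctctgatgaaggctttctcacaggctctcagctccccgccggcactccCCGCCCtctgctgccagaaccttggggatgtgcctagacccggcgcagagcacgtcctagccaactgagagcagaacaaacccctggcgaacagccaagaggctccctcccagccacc
Clic5, chr17:44188322-44188571, plus strand: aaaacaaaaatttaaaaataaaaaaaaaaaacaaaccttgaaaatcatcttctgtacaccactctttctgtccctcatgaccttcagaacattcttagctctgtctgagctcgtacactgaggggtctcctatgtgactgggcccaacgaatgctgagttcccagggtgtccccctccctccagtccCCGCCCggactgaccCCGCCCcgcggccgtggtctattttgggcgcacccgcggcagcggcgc
Spock2, chr10:60106007-60106218, plus strand: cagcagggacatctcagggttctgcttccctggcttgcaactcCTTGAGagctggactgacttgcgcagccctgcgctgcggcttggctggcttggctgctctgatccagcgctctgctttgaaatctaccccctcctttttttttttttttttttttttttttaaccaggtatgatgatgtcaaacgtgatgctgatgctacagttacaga
In the full windows of 250 bases, Hopx and Spock2 each held 1 NKX2-1 match, Cav1 held 1 match to the GC box letters and 1 to the TATA box letters, and Clic5 held 2 GC boxes. The TATA letters of Cav1 lay on the opposite strand, near the end of the window away from the start. They are thus given as a match of letters only. Of the 32851 promoter windows of this length, 13.3% held the NKX2-1 letters, 32.7% the GC box and 12.4% the TATA box. The letters of TEAD (12.6% of windows), AP-1 (6.75%) and GATA (9.99%) were not in the 4 windows, and no match overlapped another. Aqp5 and Emp2, which were lower and level, also held 2 GC boxes each, but 246 of the 250 bases of the Aqp5 window lie in GENCODE exons. No motif was thus common to the 4 windows. Hopx and Cav1 each had a second RefSeq entry, and the windows before these starts held 0 matches to any of the motifs. All 250 bases of the second Hopx window lie in GENCODE exons. The Clic5 start shown lies inside the span of that gene, and the starts used in these cells are not known from counts per gene.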

How the data were processed

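RNA-seq was made from GFP+ AT2 cells, with 2 Ctrl and 2 A5-CKO libraries. The authors deposited raw counts per gene, not normalized and not pooled. Per the labels, the tools included Trim Galore 0.6.10, HISAT2 2.2.1 and featureCounts 2.0.3 on mm10. The paper's methods add removal of duplicates, which can lower the counts of abundant genes. Removal of ribosomal RNA reads is given under RNA-seq, in a passage that ends with peak calling. Whether it was applied to these libraries is thus uncertain. Read counting is described there for MeRIP-seq only, and the RNA-seq was assumed to follow it. The strand setting is not given in the sources used here, so overlapping and antisense genes are uncertain. Of the 40092 rows, 230 lie on patches or alternate sequences.

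The Ctrl libraries held 18144865 and 20003789 counts, the A5-CKO libraries 19987476 and 20811757. The counts were fitted in edgeR 4.0.16 (R 4.3.3) with TMM factors, filterByExpr and the quasi-likelihood test over 16661 genes. Each standard error (SE) was derived from the fold change and its F statistic. The paper names DESeq2, which was run as an alternative (1.42.0), as was limma voom (limma 3.58.1). Other alternatives were other scaling factors and filters, a robust fit, a prior count of 2, the replicate block, patch copies added, a GC and length correction (91.5% of genes tested had both), and each library left out. The edgeR fit was tested on simulated data. The check it had to pass used less spread between libraries than was found here, so it does not measure power in these data.

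The markers, lists and tests were chosen with earlier results of these data known. Genes named are every AT1 marker, partners beside the marker of the same role, Alkbh5, the 5 genes most like the markers and, of every other list, the 3 with the highest mean and the 3 with the smallest p; others were named after their values were seen. Coordinates and promoters are those of RefSeq on GRCm38.p6, and exon lengths are from GENCODE M21. The 2 libraries of a genotype differed beyond sampling noise (chi-square over degrees of freedom, 110 in Ctrl and 96.4 in A5-CKO). Between genotypes the same measure ran from 88.7, for Ctrl 1 with A5-CKO 2, to 140, for Ctrl 2 with A5-CKO 2. The most alike pair was thus of different genotypes. The study's MeRIP-seq and single-cell libraries were not analysed here.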

Additional observations from a re-analysis of the deposited data

How the results depend on the processing

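No AT1 marker reached an adjusted p under 0.05 in any of the 18 alternatives, where the lowest was 0.101, for Spock2 with crossed pairs. The log2 fold changes of Hopx, Clic5, Cav1, Spock2, Rtkn2 and Pdpn_1 stayed above 0 and that of Aqp5 below 0 in every alternative that gave a value, and Pdpn_1 had no value in 2 of them. That of Emp2 turned from 0.09 to -0.041 with the GC and length correction, and with 1 library left out at a time it lay from -0.061 (without A5-CKO 2) to 0.19. The median of the AT1 markers, 0.65, was 0.94 with total counts only and 0.27 to 1.20 with 1 library left out at a time. That of the other AT1 genes, 0.29, was 0.34 with RLE factors, 0.39 with upper-quartile factors, 0.61 with total counts only, 0.34 in DESeq2 on the same genes, 0.25 with no filter, 0.33 with at least 10 counts in every library, and 0.11 to 0.33 with each library left out. Over all genes, the count with an adjusted p under 0.05 was 0 in edgeR and 64 in DESeq2 on the same genes, or 57 with its default filtering. Genes at an unadjusted p under 0.05 numbered 1530, and 746 to 1668 with each library left out, the lowest without A5-CKO 1. With total counts only, genes higher in both A5-CKO libraries went from 3384 to 5806 and genes lower from 3913 to 1685. What caused these shifts was not tested.

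Whether the replicate numbers pair the libraries is not known, since the labels name no shared litter. The deviations of same-numbered libraries had a correlation of -0.35, which cannot decide it with 2 libraries per genotype. Under the replicate block, 754 genes had an unadjusted p under 0.05, 0 had an adjusted p under 0.05, and the median of the AT1 markers was 0.73. With crossed pairs, chosen after seeing the data, 2582 genes had an unadjusted and 230 an adjusted p under 0.05 in edgeR. Counts near the floor limit Pdpn and Ager, and the spread between 2 libraries limits the other markers.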
